A study of Mus musculus with 16 samples.

Results

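Hematopoietic stem cells (HSCs) renew themselves in the bone marrow and give rise to all blood cells. They change their transcription with age, and 10 genes with a recurrent rise in aged HSCs were examined here for histone marks in young and aged cells. The 10 genes were taken as a named set: *Selp*, *Vwf*, *Itgb3*, *Clu*, *Aldh1a1*, *Sult1a1*, *Nupr1*, *Neo1*, *Plscr2* and *Ehd3*. All 10 of 10 symbols were found among the 21853 protein-coding genes of GENCODE M21 on the main chromosomes of the mouse genome build mm10. RNA was not analysed here, so the rise that gives the set its name was taken as given. The rule for the set used no value of the peak lists.

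Young HSCs came from 10-week-old and aged HSCs from 20-month-old C57BL/6 mice. The methods name female animals, bought young and aged in the study's own facilities. The sorted cells of both ages were negative for lineage markers, IL-7R, CD34, CD48 and Flt3 and positive for CD150, Sca-1 and c-kit, and neither age carried an engineered allele or a treatment. Chromatin immunoprecipitation sequencing (ChIP-seq) covered 3 histone marks in 16 libraries, which form 8 groups of 2, a pair for each mark and each input at either age. Each mark and age had 1 pooled list of peaks, so there was no measure of spread between replicates and no difference between the ages could be tested. A difference below means only that a peak was in one list and not in the other.

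Trimethylation of histone H3 on lysine 4 (H3K4me3) marks the start sites of active genes and of genes held ready for use. Trimethylation on lysine 27 (H3K27me3), placed by Polycomb repressive complex PRC2, and ubiquitination of histone H2A (H2AK119ub1), placed by PRC1, mark genes that Polycomb proteins keep silent. A promoter with H3K4me3 and H3K27me3 together is called bivalent. The question put to each of the 10 genes was whether a repressive mark left, or H3K4me3 appeared, by 20 months.

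The lists differed in length. H3K4me3 had 11371 peaks in the young list and 6723 in the aged list, H3K27me3 had 63142 and 20419, and H2AK119ub1 had 2593 and 17768. A list that is longer marks more genes everywhere, so each count for the 10 genes stands beside the share of all 21853 genes that met the same criterion. Promoters reached 1 kb up and down from any annotated start of a protein-coding transcript, and a window was the gene body with 10 kb on either side. As a check of the cell type, promoter H3K4me3 was listed at 11 of 14 HSC genes in young cells (34.3% of all genes). In aged cells it was listed at 12 of the 14 (23.7% of all genes). At both ages it was listed at 10 of them, among them *Runx1*, *Meis1*, *Mecom* and *Tal1*. *Gata2* had it in the young list only, *Hoxa9* and *Kit* in the aged list only, and *Slamf1* in neither. All 8 of 8 well-known Polycomb targets, such as *Hoxd13* and *Pax6*, had promoter H3K27me3 at both ages, against 8.15% of all genes. Both control lists were chosen with earlier results of these data known, so the counts are not an independent check.

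A missing peak did not mean a missing mark. Of 10 housekeeping genes, 5 had promoter H3K4me3 in the young list (34.3% of all genes) and 4 in the aged list (23.7%). *Hprt*, *Pgk1*, *Ppia* and *Rplp0* had none in either list. *Kit*, whose protein c-kit was used to sort the cells at both ages, had promoter H3K4me3 in the aged list alone, since its aged peak lay 991 bp and its nearest young peak 1044 bp from a start site, on either side of the 1 kb limit.

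The 4 promoters whose letters show the contrast in base composition best are printed here, since H3K4me3 is placed mostly at promoters rich in the dinucleotide CpG. Each is the 250 bases before the RefSeq start site, read 5′ to 3′ on the strand of the gene in build GRCm38.p6, the assembly behind mm10, and capitals mark every CpG.
*Neo1* (chr9:59036442-59036691, minus strand): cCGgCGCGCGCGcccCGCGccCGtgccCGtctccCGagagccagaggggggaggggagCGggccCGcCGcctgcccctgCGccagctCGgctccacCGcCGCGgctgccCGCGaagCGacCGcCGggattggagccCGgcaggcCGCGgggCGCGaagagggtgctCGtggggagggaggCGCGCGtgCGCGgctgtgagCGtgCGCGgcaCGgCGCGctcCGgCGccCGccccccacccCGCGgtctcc
*Ehd3* (chr17:73804591-73804840, plus strand): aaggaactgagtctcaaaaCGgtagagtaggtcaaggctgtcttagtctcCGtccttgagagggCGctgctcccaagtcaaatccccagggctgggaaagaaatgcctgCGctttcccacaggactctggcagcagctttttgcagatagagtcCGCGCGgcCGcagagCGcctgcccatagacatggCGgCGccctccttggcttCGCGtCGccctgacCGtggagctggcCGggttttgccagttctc
*Selp* (chr1:164115014-164115263, plus strand): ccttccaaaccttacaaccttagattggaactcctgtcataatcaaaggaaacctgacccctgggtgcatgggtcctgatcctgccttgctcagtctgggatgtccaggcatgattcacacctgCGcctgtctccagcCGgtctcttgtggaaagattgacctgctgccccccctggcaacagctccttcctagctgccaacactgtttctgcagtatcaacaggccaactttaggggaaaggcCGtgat
*Aldh1a1* (chr19:20492333-20492582, plus strand): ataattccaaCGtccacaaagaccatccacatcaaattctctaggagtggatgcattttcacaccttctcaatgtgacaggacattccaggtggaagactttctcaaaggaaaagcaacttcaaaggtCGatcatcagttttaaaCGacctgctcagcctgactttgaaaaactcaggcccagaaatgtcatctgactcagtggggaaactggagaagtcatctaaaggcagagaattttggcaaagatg

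The stretch of *Neo1* held 45 CpG and that of *Ehd3* 16, whereas those of *Selp* and *Aldh1a1* held 3 each. RefSeq promoter windows, from 250 bases before to 50 after a start, were matched for 6 of the 10 genes, with 2 windows for *Aldh1a1*, and not for *Clu*, *Vwf*, *Itgb3* and *Plscr2*. With fewer than 80% of the genes matched, these values describe single genes and not the set. *Neo1* had 82.7% GC and an observed over expected CpG of 1.05, above 96.5% of the 32851 windows in the table. *Ehd3* had 61.7% GC and 0.843. The other windows were poor in CpG, at 0.252 for *Nupr1*, 0.202 for *Selp*, 0.213 and 0.0604 for the upstream and downstream starts of *Aldh1a1*, and 0 for *Sult1a1*, against a median of 0.384 over the table. *Neo1* and *Ehd3* were also the 2 matched genes with promoter H3K4me3 at either age. *Itgb3* and *Plscr2* had promoter H3K4me3 too, but without a window their CpG content was not measured.

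**Figure D1:**
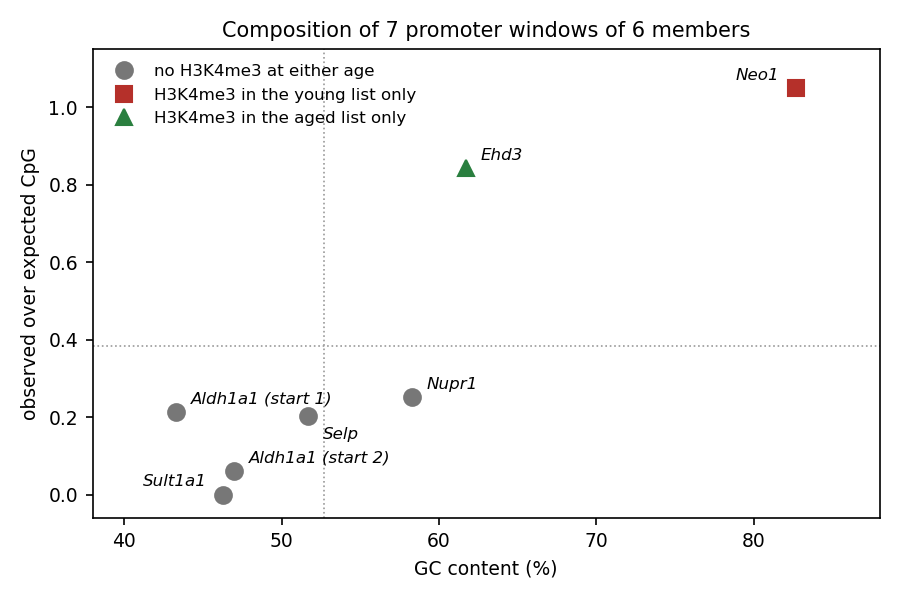
GC content in percent (horizontal) and observed over expected CpG (vertical) of 7 RefSeq promoter windows of 6 genes, with dotted lines at the medians of all 32851 windows. *Neo1* (square, H3K4me3 in the young list only) and *Ehd3* (triangle, aged list only) lie above the CpG median, and the 5 windows without listed H3K4me3 (circles) lie below it, from 0 to 0.252.

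Among all genes with a window in that table, promoter H3K4me3 was listed more often where CpG was denser. It was listed in the young cells at 55.9% of the 8683 genes with an observed over expected CpG of at least 0.6 and at 14.0% of the 7848 genes below it. In the aged cells the shares were 39.2% and 9.33%. Fixed motifs were searched on both strands of the 7 windows, and no motif contained another. The AP-1 letters TGANTCA occurred in *Selp* and in the upstream start of *Aldh1a1* (7.81% of all windows), the GATA letters AGATAA in the downstream start of *Aldh1a1* (11.2%), and the STAT letters TTCNNNGAA in *Nupr1* (8.30%). The RUNX letters TGTGGTT (5.27% of all windows), the ETS letters ACCGGAAGT (1.10%), the CRE letters TGACGTCA (1.79%) and the TATA box TATAAA (13.6%) occurred in none of the 7.

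H3K4me3 was listed at the promoters of 2 of the 10 genes in young HSCs, against 34.3% of all genes, and of 3 in aged HSCs, against 23.7%. *Ehd3* and *Plscr2* had it in the aged list only, a pattern that 5.81% of all genes showed. *Neo1* had it in the young list only (16.4% of all genes), *Itgb3* had it at both ages (17.9%), and the other 6 genes had it at neither (59.9%). In the wider windows the count was 2 in the young list (44.3% of all genes) and 4 in the aged list (32.3%). *Selp* joined *Ehd3* and *Plscr2* there as aged only, 3 of 10 against 5.76% of all genes, and *Neo1* was again young only (17.8%). With 10 genes, these are counts of 1 to 4.

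*Ehd3* encodes an ATPase that shapes membranes for endocytic recycling. It spans chr17:73804134-73832094 on the plus strand, with its protein-coding start at 73804841. The aged H3K4me3 peak, chr17:73804900-73805114, lay in the 5′ untranslated region, 59 to 273 bp after the start, just past the *Ehd3* sequence printed above. Its fold enrichment over background was 4.42 and its −log10 q 4.71, a value that 44.7% of the aged peaks equalled or exceeded. MACS2 computes both from read counts, so the reads could be worked back, and 19 stacked reads (95% Poisson interval 11.4 to 29.7) stood at the summit over a background of 3.52. No young H3K4me3 peak was closer than 216 kb to the gene, where the nearest lay at *Srd5a2*. Neither repressive mark was listed in the window at either age, and the nearest young H3K27me3 region was 66.5 kb from the gene.

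*Plscr2*, a gene of the phospholipid scramblase family, had the most H3K4me3 peaks of the 10 genes. The gene lies at chr9:92275602-92297752 on the plus strand. Its 3 aged peaks all lay in introns. The first, chr9:92276072-92276321, began 470 bp after the most upstream start, with a fold of 3.31, a −log10 q of 2.79 and 18 reads (10.7 to 28.4) over 4.75. The second, chr9:92276715-92277090, was the strongest listed at any of the 10 genes in aged cells, with a fold of 4.64, a −log10 q of 5.27 and 20 reads (12.2 to 30.9) over 3.52. It began 969 bp from the nearest start, just inside the 1 kb limit. The third, chr9:92278834-92279044, lay 3088 bp from the nearest start and was weak, with a fold of 2.96, a −log10 q of 1.93 and 16 reads (9.15 to 26.0) over 4.75. The nearest young H3K4me3 peak stood 25.0 kb away, 11 bp from a start of the neighbouring family member *Plscr1*. No repressive mark of either age lay closer than 779 kb to *Plscr2*.

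*Selp* encodes P-selectin, an adhesion receptor of platelets and endothelium, and lies at chr1:164115264-164150026 on the plus strand. Its aged H3K4me3 peak was intronic and began 1356 bp after the single start site, outside the 1 kb promoter and inside the 2.5 kb alternative. It had a fold of 3.75, a −log10 q of 3.34 and 17 reads (9.90 to 27.2) over 3.80, and 75.9% of the aged peaks had at least that −log10 q. The peak is printed for comparison with the promoter above, on the plus strand of GRCm38.p6 with each CpG in capitals.
*Selp* aged H3K4me3 peak (chr1:164116620-164116845): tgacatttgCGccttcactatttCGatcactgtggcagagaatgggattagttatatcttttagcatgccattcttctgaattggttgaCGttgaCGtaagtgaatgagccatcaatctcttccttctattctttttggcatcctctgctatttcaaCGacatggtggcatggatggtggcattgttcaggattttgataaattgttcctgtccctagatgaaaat
The 226 bases held 5 CpG. The nearest young H3K4me3 peak was 99.3 kb from the gene, at *Slc19a2*.

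*Itgb3*, the integrin beta subunit of the platelet fibrinogen receptor, had promoter H3K4me3 at both ages, and it was the only one of the 10 genes with this pattern. The gene lies at chr11:104608000-104670476 on the plus strand. The young peak, chr11:104607709-104607979, ended 21 bp before the start, with a fold of 4.25, a −log10 q of 4.78 and 19 reads (11.4 to 29.7) over 3.70. The aged peak, chr11:104607614-104607932, overlapped it, with a fold of 2.96, a −log10 q of 1.93 and 16 reads (9.15 to 26.0) over 4.75. The summits stood 189 and 179 bp before the start. The counting intervals of the 2 summits overlapped widely, and the lower aged fold went with a higher aged background. At a −log10 q of at least 4 the aged peak dropped out and *Itgb3* became young only.

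**Figure D2:**
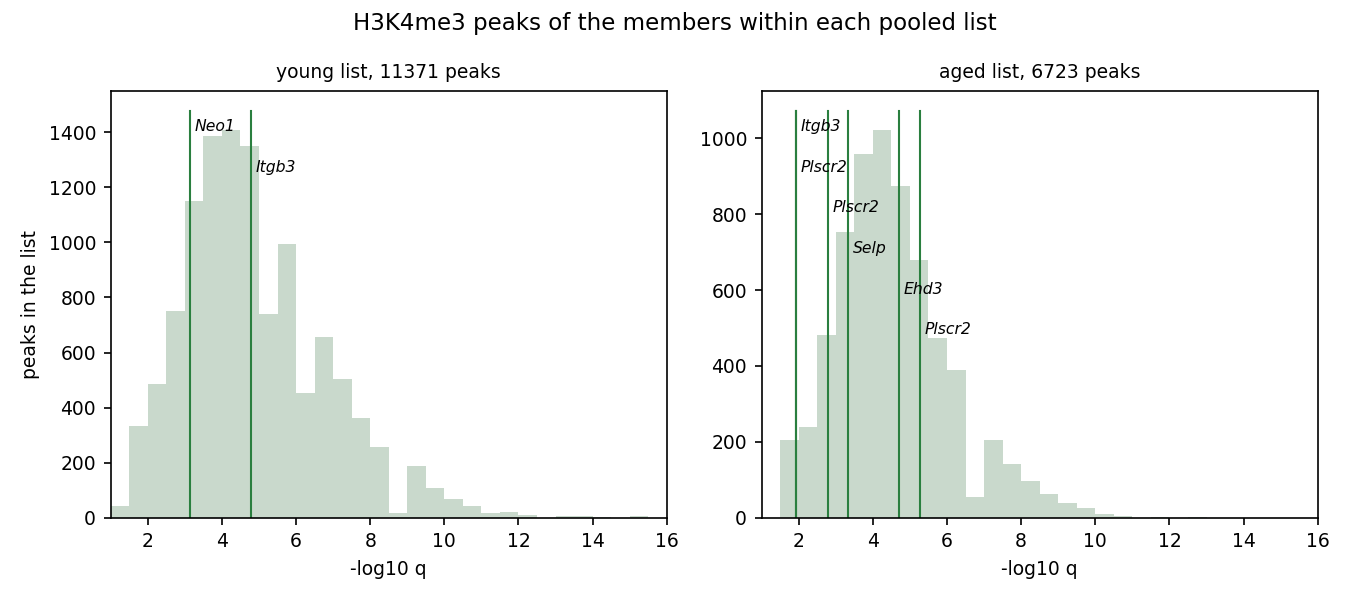
Number of H3K4me3 peaks (vertical) by −log10 q (horizontal) in the young and the aged pooled list, with green lines at the peaks in the windows of the 10 genes. The 2 young peaks stand at 3.15 and 4.78, and the 6 aged peaks run from 1.93 (*Itgb3* and *Plscr2*) to 5.27 (*Plscr2*), all well below the upper end of their lists.

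By −log10 q, the second *Plscr2* peak, the *Ehd3* peak and the young *Itgb3* peak stood above the medians of their H3K4me3 lists. Of those lists, 31.9%, 44.7% and 49.4% of peaks had at least that value. For the other H3K4me3 peaks at the 10 genes this share was 75.9% to 98.4%. The summits at the 10 genes held 16 to 20 reads, against a median of 20 among young and 19 among aged peaks. At the lowest background of each list, 3.70 reads in young and 3.52 in aged cells, the smallest listed summit held 13 reads in both. A young signal of fewer reads at *Ehd3*, *Plscr2* or *Selp* would therefore not have been listed. Cutting the young list to its best 6723 peaks, the number in the aged list, left *Ehd3*, *Plscr2* and *Selp* as aged only and removed the *Neo1* peak, so that none of the 10 genes was young only. Under that equal number, 10.3% of all genes were aged only at the promoter, as *Ehd3* and *Plscr2* were, and 11.4% in the window, as *Selp* was too. The young-only shares were 10.5% and 11.5%.

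*Neo1* was the one gene of the 10 with H3K27me3, and it had the mark in young HSCs alone. It encodes neogenin, a receptor for netrins and repulsive guidance molecules, and lies at chr9:58874687-59036441 on the minus strand, with its upstream start at 59036441. The young list held 16 H3K27me3 regions in the window, from 26.2 kb inside the gene to 8.04 kb upstream of the start, and the aged list held none. Promoter H3K27me3 was thus listed at 1 of the 10 genes in young cells, against 16.5% of all genes, and at 0 in aged cells, against 8.58%. As young only, *Neo1* shared its promoter pattern with 8.33% of all genes. The window counts were the same, 1 and 0, against 32.2% and 19.2% of all genes, and 13.7% of all genes were young only there.

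The *Neo1* regions covered 12.2 kb, 6.72% of the window. They were 208 to 2629 bp wide with a median of 418 bp, their folds ran from 2.61 to 3.73 and their −log10 q from 1.22 to 3.28. Most lay in introns, where they also fell inside another annotated gene, Gm47271. The 2 widest flanked the start. The first, chr9:59033147-59035775, 2629 bp wide with a fold of 3.23, began 650 bp from the nearest start within the gene, and the second, chr9:59036928-59039213, 2286 bp wide with a fold of 3.06, ended 487 bp upstream of it. The CpG-dense stretch printed for *Neo1* lay in the gap between them. None of the 16 regions reached a −log10 q of 4, in a young list with a median of 1.96. The highest value among the 16 was equalled or exceeded by 8.06% of the young list and the lowest by 99.2%. When the young list was cut to its best 20419 regions, the number in the aged list, 9 of the 16 remained. The nearest aged H3K27me3 region lay 36.2 kb upstream of the gene.

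The count of 16 regions, which was the value of *Neo1* itself, was then used as a cutoff for all genes. At least 16 young H3K27me3 regions fell in the windows of 551 genes, and 18 of these, or 3.27%, had none in the aged list, *Neo1* among them. For comparison, 42.7% of the 7039 genes with any young H3K27me3 region in their window had none in the aged list. Window length and number of young regions were not matched between these classes, so whether the *Neo1* pattern was rare was not tested.

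The young *Neo1* promoter also carried H3K4me3, at chr9:59035536-59035819 in an intron, 606 bp from the nearest start. The peak had a fold of 3.61, a −log10 q of 3.15 and 16 reads (9.15 to 26.0) over 3.70, and it overlapped the widest H3K27me3 region, so both marks of a bivalent promoter were listed on the same bases. In aged cells neither was listed, and the nearest H3K4me3 peak was 255 kb away.

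In the windows, H2AK119ub1 was listed at 2 of the 10 genes in young cells (7.05% of all genes) and at 4 in aged cells (33.2%). *Selp*, *Nupr1* and *Neo1* had it in the aged list only, 3 of 10 beside 26.8% of all genes, *Clu* in the young list only (0.627%), and *Itgb3* at both ages. At promoters it was listed at 1 gene in young cells (2.1% of all genes), *Clu*, and at 1 in aged cells (14.6%), *Itgb3*. *Clu* was young only at its promoter, as were 0.435% of all genes, and *Itgb3* aged only, as were 13%.

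At *Neo1* the aged H2AK119ub1 region, chr9:59038216-59038643, lay 1775 bp upstream of the start, with a fold of 3.16. It fell within the wide upstream region that carried H3K27me3 in young cells. *Selp* had 2 aged regions. One, chr1:164112771-164112970, lay 2294 bp upstream of the start with a fold of 3.76 and a −log10 q of 2.98, which 5.23% of the aged list equalled or exceeded. The other, chr1:164144697-164144900, fold 3.23, covered a coding exon near the end of the gene. Aged *Selp* thus had H2AK119ub1 listed 2294 bp before the start and H3K4me3 1356 bp after it, both outside the 1 kb promoter. No peak of any mark was listed in its window in young cells.

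*Itgb3* carried 5 aged H2AK119ub1 regions and 1 young one. The aged regions ran from 9657 bp upstream to 24.1 kb into the gene, with folds of 2.99 to 4.30. The promoter region among them, chr11:104608411-104608712, lay 411 bp after the start in an intron. Its −log10 q of 1.18 was among the lowest of the aged list, of which 99.1% had at least that value. The young region, chr11:104616717-104616916, fold 2.96, was intronic and overlapped none of the aged ones. *Nupr1*, a small stress-induced nuclear protein gene at chr7:126623249-126630861 on the minus strand, had 2 aged regions. They lay 3522 bp past and 7708 bp before its start, with folds of 2.89 and 3.03.

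*Clu* encodes clusterin, a secreted chaperone, and lies at chr14:65968483-65981547 on the plus strand. Its young H2AK119ub1 region, chr14:65971264-65971512, had a fold of 3.84 and a −log10 q of 2.47, which 10.7% of the young list equalled or exceeded. It overlapped the most downstream of 6 annotated starts, 2781 bp into the gene, and none within 1 kb of it remained in GENCODE's basic set, where *Clu* had no mark at its promoter. When both H2AK119ub1 lists held 2593 regions, *Clu* stayed young only in the window and *Selp* was the one gene aged only, with 3.74% and 5.12% of all genes in these classes. The nearest aged H2AK119ub1 and young H3K27me3 regions stood 15.1 and 14.7 kb from *Clu*, both at *Scara3*.

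**Figure D3:**
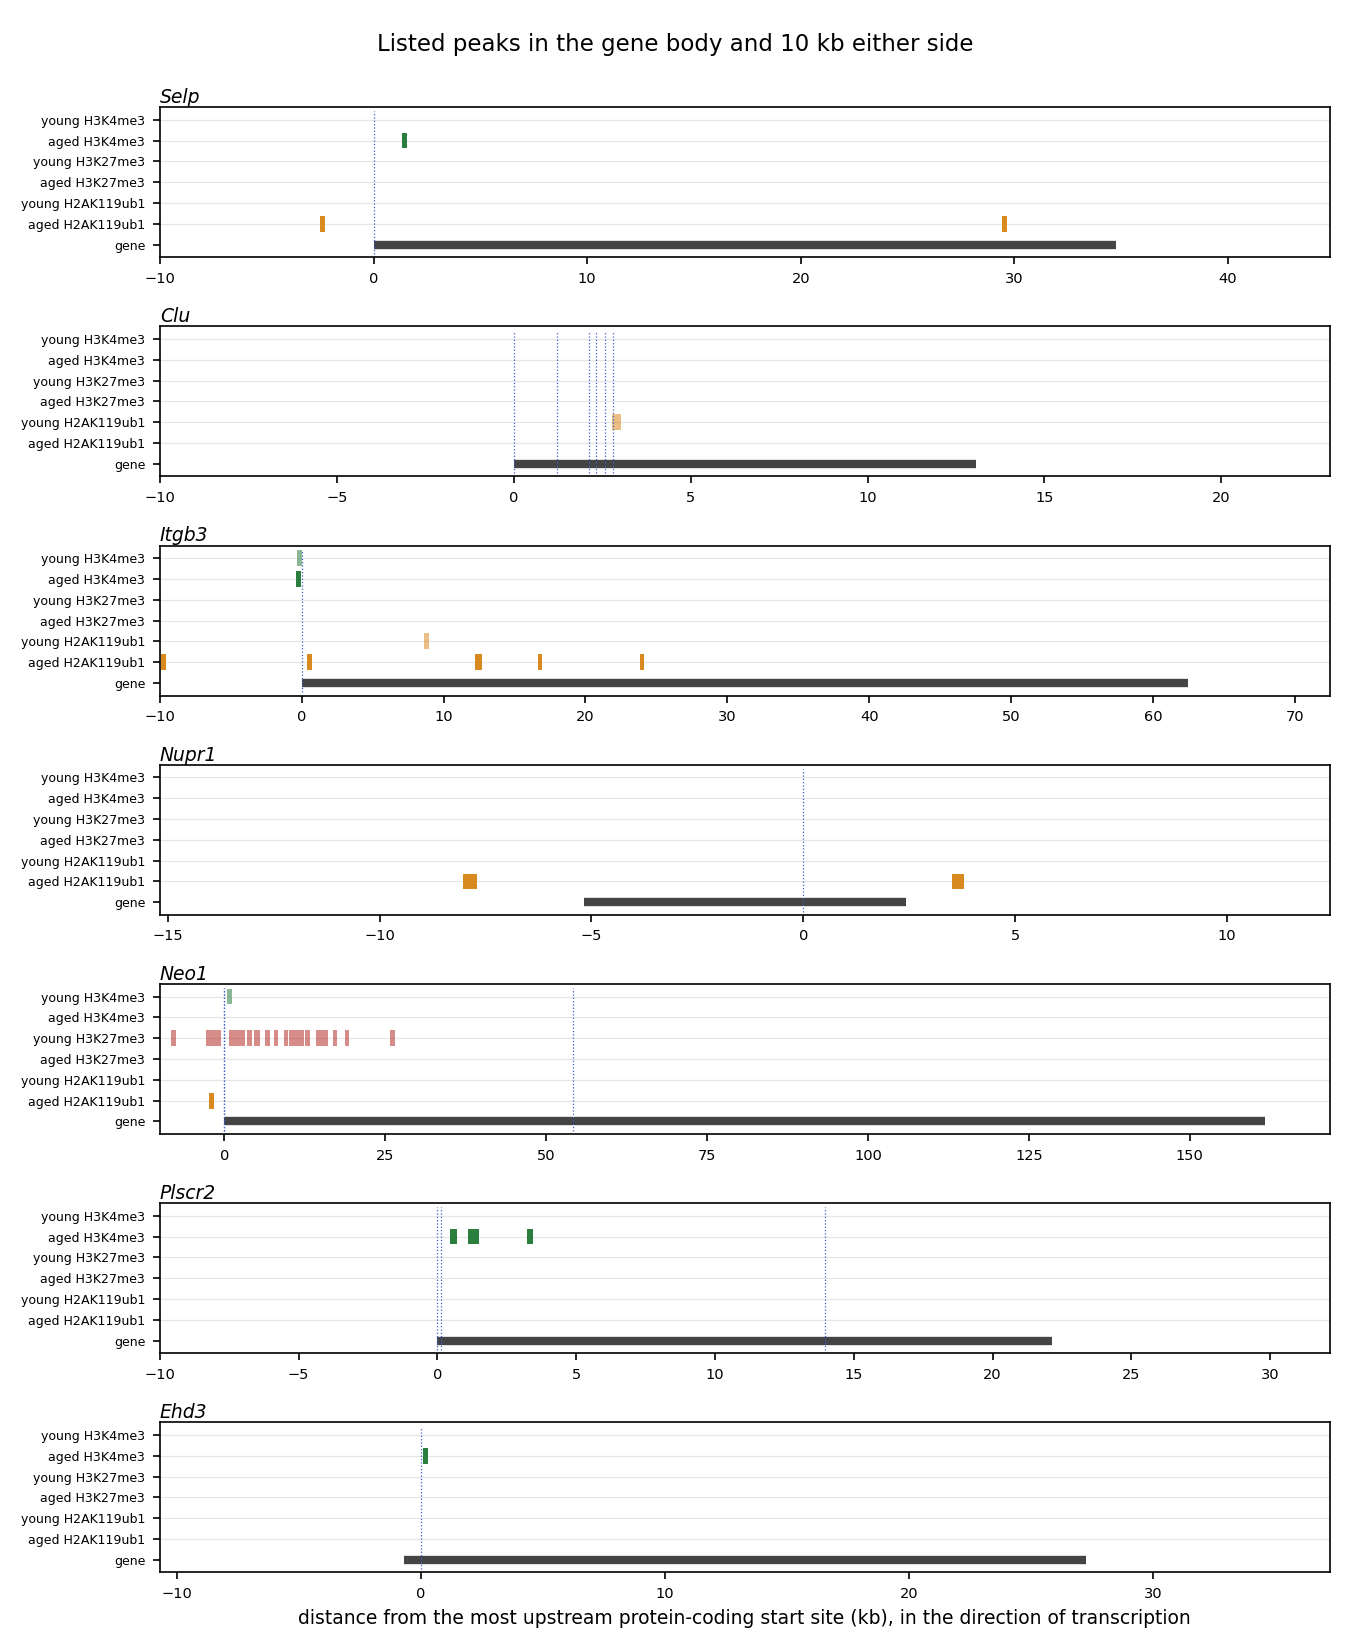
Listed peaks of the 6 pooled lists (rows) in the windows of the 7 genes that had any, by distance in kb from the most upstream protein-coding start (horizontal, in the direction of transcription), with young peaks in pale and aged peaks in full colour, H3K4me3 in green, H3K27me3 in red and H2AK119ub1 in orange. The dark bar is the gene body, dotted lines are start sites, and narrow peaks are drawn at a minimum width. The 16 young H3K27me3 regions at *Neo1* and the aged H3K4me3 peaks at *Selp*, *Plscr2* and *Ehd3* have no counterpart at the other age.

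*Vwf*, *Aldh1a1* and *Sult1a1* had no peak of any mark in their windows at either age. For each mark taken alone, a window without a listed peak was common among all genes. At neither age was H3K4me3 listed in the windows of 49.9%, H3K27me3 in those of 67% and H2AK119ub1 in those of 66.2%. The share of all genes lacking all 3 marks was not counted. The shares were also not matched for window length, which was 160 kb for *Vwf* and 171 kb for *Aldh1a1*. Whether windows empty of all 3 marks are common was therefore not tested. *Vwf*, at chr6:125546774-125686679, encodes von Willebrand factor, the adhesive protein stored in megakaryocytes and platelets. The nearest peaks to it were an aged H2AK119ub1 region and a young H3K4me3 peak, 50.2 and 51.7 kb away, both at *Cd9*. *Aldh1a1*, at chr19:20492715-20643465, encodes an enzyme that makes retinoic acid from retinaldehyde. Its nearest peak, young H3K4me3 at *Anxa1*, was 102 kb away, and its nearest aged peak of any mark was 631 kb away. *Sult1a1*, at chr7:126672865-126676432, encodes a sulfotransferase of phenols. Its nearest peaks were H3K4me3 at *Bola2* in aged cells, 19.0 kb away, and at *Sgf29* in young cells, 22.8 kb away. These 3 genes therefore had no listed repressive mark that could leave and no listed H3K4me3 that appeared.

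Counts in related genes are given for comparison, with no test. Of 18 platelet and megakaryocyte genes, 4 had promoter H3K4me3 in young cells (34.3% of all genes) and 2 in aged cells (23.7%). In the aged list only, 0 of the 18 and 2 of the 10 had it, beside 5.81% of all genes. *Gp1bb*, a subunit of the platelet receptor for von Willebrand factor, had promoter H3K27me3 in the young list only (8.33% of all genes). In the aged list 0 of the 18 had promoter H3K27me3 (8.58% of all genes). Of 26 genes of the same families, 5 had promoter H3K4me3 at each age (34.3% of all genes in young and 23.7% in aged cells). *Itgb5* and *Nupr1l* were aged only (5.81% of all genes), and *Itgb8* had H3K27me3 in the young list only (8.33%). The study's own RNA sequencing lists genes as higher or lower in aged HSCs, a choice made on other libraries of the same study. Of 281 such higher genes outside the 10, 266 had a matching symbol. Promoter H3K4me3 was aged only at 20 of these, or 7.52% (5.81% of all genes), among them *Agtr1a*, *Ankrd11*, *Bcl3*, *Cd38* and *Enpp5*. The opposite change was more frequent, with H3K4me3 young only at 50 of the 266, or 18.8% (16.4% of all genes). Promoter H3K27me3 was young only at 61 of them, or 22.9% (8.33% of all genes), among them *Adgrg2*, *Agtr1a*, *Apob*, *Atf3* and *Bmp4*. It was aged only at 2 of them, or 0.752% (0.426% of all genes). Promoter H2AK119ub1 was young only at 3 of them, or 1.13% (0.435% of all genes), *Exoc3l4*, *Mab21l2* and *Meiob*. At 49 of them, or 18.4% (13% of all genes), it was aged only. Of the 127 genes listed as lower, 8 had no matching symbol, and among the rest the shares were 10.9% for aged-only H3K4me3, 4.20% for young-only H3K27me3 and 0 genes for young-only H2AK119ub1. In the opposite direction they were 28.6% for H3K4me3, 0.84% for H3K27me3 and 21% for H2AK119ub1.

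**Figure D4:**
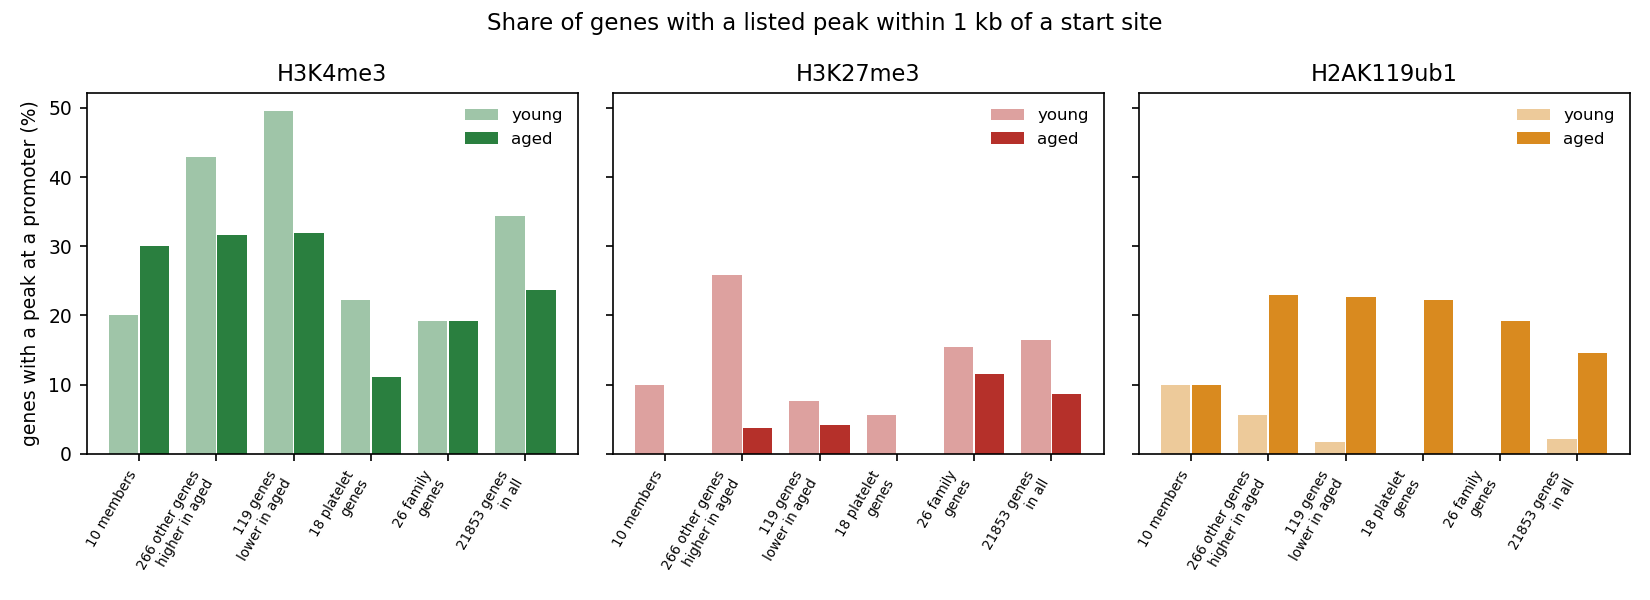
Share of genes in percent (vertical) with a listed peak within 1 kb of a start site, for the 10 genes, the genes the study lists as higher or lower in aged HSCs, platelet and megakaryocyte genes, members of the same families and all 21853 genes, in young (pale) and aged (full colour) cells. H3K4me3 stood at 20% of the 10 genes in young and 30% in aged cells, against 34.3% and 23.7% of all genes, and 1 gene of the 10 is 10%.

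By role, the 10 genes gave no single pattern. Of the 3 platelet adhesion genes, *Selp* had H3K4me3 in aged cells alone, *Itgb3* at both ages and *Vwf* at neither. The enzyme genes *Aldh1a1* and *Sult1a1* had no mark. *Ehd3* and *Plscr2*, whose products differ in function, had H3K4me3 in the aged list alone. These roles were not fixed in advance, so agreement within a role carries no weight. H3K27me3 was listed in young and not in aged cells at 1 of the 10 genes, *Neo1*, where H3K4me3 was listed in young cells and not in aged cells. Within 10 kb of the gene bodies, no gene of the 10 had both a repressive mark listed in young cells alone and H3K4me3 listed in aged cells alone. The share of all genes with both was not counted. In windows of all genes, young-only H3K27me3 stood at 13.7%, young-only H2AK119ub1 at 0.627% and aged-only H3K4me3 at 5.76%. The absence of both in 10 genes is therefore no trait of this set. With 50 kb on either side *Selp* had both, since a young H3K27me3 region lay 34.9 kb from it.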

How the data were processed

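ChIP-seq of 16 libraries from young and aged mouse HSCs was used as 6 pooled peak lists, one per mark and age. Per the labels and the study's methods, the authors digested chromatin with micrococcal nuclease, sonicated it, aligned single reads to mm10 with Bowtie2 and called peaks against input with MACS2 2.2.6 (version from the submitters' processing notes). Peak names carry q values of 0.05 for H3K4me3 and 0.1 for the broad marks. The deposited columns hold a score, the fold enrichment (a ratio), the −log10 p-value and the −log10 q-value. Names of the broad lists show 1 library number, so whether both replicates entered them is unclear. Read depth was not analysed here, and intervals cover counting error only.

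Overlaps of at least 1 bp were computed with numpy 2.4.6 and checked with bedtools 2.31.1, after a test on simulated data, against 54361 start sites of 21853 genes in GENCODE M21. Peaks on unplaced scaffolds (11 in all) were left out. Summit reads were recovered from fold and p for 100% of H3K4me3 peaks, to within 0.001 in −log10 p. Sequences came from RefSeq through samtools 1.23.1 and a promoter table. Groups followed the labels. All 10 genes are named with every peak. Of the comparison lists, up to 5 genes per list in alphabetical order are named where H3K4me3 was aged only or a Polycomb mark young only, and control genes named for checks were chosen after their values were seen. The genes and lists were chosen with earlier results of these data known.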

Additional observations from a re-analysis of the deposited data

How the results depend on the processing

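No paired analysis was possible because the files hold 1 list, named as pooled, per mark and age, and for the same reason no replicate could be left out. Of 60 alternative counts over the 10 genes, 39 stayed within 1.5 times the main count and 21 did not. With promoters of 2.5 kb, aged H2AK119ub1 stood at 3 genes. With the 5′ end of the gene only, and with the start sites of GENCODE's basic set, added after seeing the data, young promoter H2AK119ub1 stood at 0. At a −log10 q of at least 4, the promoter counts were 1 for young H3K4me3 and 0 for young H3K27me3 and for H2AK119ub1 at either age, and the window counts were 1 and 2 for young and aged H3K4me3, 0 for young H3K27me3 and 0 for H2AK119ub1 at either age. The median −log10 q of each broad list was 1.96 or lower, well below that cutoff. With the same number of peaks at both ages, young H3K4me3 stood at 1 gene in promoters and in windows. Aged H2AK119ub1 then stood at 0 promoters and 2 windows. With the gene body only, young H3K4me3 stood at 1 gene and aged H2AK119ub1 at 2. With 50 kb on either side, young H3K4me3 stood at 5 genes, young H3K27me3 at 3 and aged H3K27me3 at 1, the last at *Neo1*, which was then no longer young only. At that width *Selp* and *Clu* were young only for H3K27me3, *Selp* stayed aged only for H3K4me3, *Plscr2* was no longer aged only for H3K4me3, and *Clu* was no longer young only for H2AK119ub1, while *Sult1a1* became aged only for it. Requiring 50% of a peak inside the window changed no count by more than 1.5 times. Apart from the annotation, these settings use fewer or more peaks or bases by construction. Shares of all genes under these settings are not given, except for the classes above with equal numbers of peaks. The alternative counts therefore stand without a background and describe the 10 genes only.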
